A study of Mus musculus with 6 samples.

Results

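The genes described here encode anti-Müllerian hormone and its receptor (Amh, Amhr2), the inhibin and activin subunits (Inha, Inhba, Inhbb) and the receptor of follicle-stimulating hormone (Fshr). They were chosen by gene name as hormone and hormone receptor genes of fetal Sertoli cells, 6 of the 42747 rows of the count table, and all 6 passed the filter on low counts that left 18383 genes for testing. Their polyadenylated RNA was measured in whole testes of mouse embryos at E16.5, with 3 cKO libraries and 3 WT libraries, and the series design counts 3 mice per group. The series title names the kinase CK1α in Sertoli cells, so cKO was read as a conditional knockout of Csnk1a1 in these cells. The Cre driver, the floxed allele and the genotype of the WT mice are not stated in the labels.

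Anti-Müllerian hormone is a member of the TGF-β family that fetal Sertoli cells secrete from the onset of testis formation, and it makes the Müllerian ducts, the precursors of the uterus and oviducts, regress in the male fetus. It binds the type II receptor AMHR2, which pairs with BMP type I receptors and signals through SMAD proteins. Inhibins join the α subunit (Inha) to a β subunit (Inhba or Inhbb), activins are dimers of β subunits alone, and inhibins oppose activins at their receptors. In the mouse fetal testis the βA subunit (Inhba) is known mainly from Leydig cells, and the α and βB subunits from Sertoli cells. FSHR is a G protein-coupled receptor on Sertoli cells that raises cyclic AMP and through which pituitary follicle-stimulating hormone drives their growth.

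Upstream sequences are shown for 2 members that were lower in cKO testes, Fshr and Inhbb, and for Amhr2, which was not called, because they let the motifs of known regulators be read beside the values. Each is the stretch of 250 bases before the gene start in the RefSeq promoter table (build GRCm38.p6), printed 5′ to 3′ on the strand of the gene, with matches to any of 10 motifs in capitals. The table held 5 of the 6 members (Amhr2, Inha, Inhba, Inhbb and Fshr). For Inha the start in that table lay 532 bases inside the gene of GENCODE M21, which uses the same build, so its window was not used.
Fshr, chr17:89200676-89200925, minus strand: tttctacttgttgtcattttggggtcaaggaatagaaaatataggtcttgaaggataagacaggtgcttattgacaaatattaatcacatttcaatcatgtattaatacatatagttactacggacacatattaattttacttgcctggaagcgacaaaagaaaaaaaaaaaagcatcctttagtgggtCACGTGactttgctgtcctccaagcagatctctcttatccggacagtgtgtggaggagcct
Inhbb, chr1:119422249-119422498, minus strand: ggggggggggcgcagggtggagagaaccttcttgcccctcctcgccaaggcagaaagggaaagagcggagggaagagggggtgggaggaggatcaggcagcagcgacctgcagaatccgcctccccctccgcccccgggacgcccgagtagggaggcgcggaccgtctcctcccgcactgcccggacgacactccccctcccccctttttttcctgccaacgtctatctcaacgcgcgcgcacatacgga
Amhr2, chr15:102445117-102445366, plus strand: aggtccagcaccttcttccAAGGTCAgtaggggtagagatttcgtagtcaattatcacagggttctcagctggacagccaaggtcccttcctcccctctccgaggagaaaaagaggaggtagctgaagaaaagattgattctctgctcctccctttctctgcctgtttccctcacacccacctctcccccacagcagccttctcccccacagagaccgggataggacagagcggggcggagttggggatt

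The Fshr window held the E box CACGTG, the motif of the factors USF1 and USF2, with its leading base 61 bases before the gene start. This palindrome was present in 6.02% of all 32851 windows of the table. The Amhr2 window held AAGGTCA, the motif of NR5A1 (steroidogenic factor 1), 231 bases before the start on the gene's own strand, against 4.08% of all windows. The shorter nuclear receptor motif AGGTCA, in 14% of windows, lies within that match. The Inhbb window held none of the 10 motifs on either strand. The Inhba window held the SOX core ACAAT on the opposite strand (27.7% of windows), the TCF/LEF core TCAAAG (13.8%) and the TATA box TATAAA (12.4%). AGATAA, 1 form of the GATA factor motif, had no match in the 4 windows used (9.99% of all windows held it). The same was true of the SOX motif AACAAT (9.42%). Other forms of the GATA motif were not searched, and 1 of them, TGATAA, lies on the opposite strand of the Amhr2 window. Neither TGACGTCA (1.55%) nor its shorter form TGACG (17.8%), the motifs of CREB, was found there. A match describes letters only and is not a binding site measured here.

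Of the 6 members, 3 were lower in cKO testes (Amh, Inhbb and Fshr), none was higher and 3 were not called (Inha, Inhba and Amhr2), where 3.35% of all tested genes were called. The call was an adjusted p under 0.05 in edgeR's quasi-likelihood test, adjusted by Benjamini-Hochberg over all tested genes. Of all tested genes 1.84% were called lower and 1.5% higher by the same rule. Levels of a gene between libraries are given in CPM, counts per 1000000 counts in tested genes after TMM scaling, a correction for differences in composition between libraries. Log2 fold changes are cKO over WT, with the standard error (SE) of the fit. Testis RNA comes from a mixture of cells, so fewer Sertoli cells and less of a transcript per Sertoli cell cannot be told apart.

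Facts of the whole series bear on these values as follows. Libraries held 15092619 to 17431546 counts. Csnk1a1, the targeted gene, averaged 393 ± 14.1 CPM in cKO libraries, against 372 ± 24.0 CPM in WT libraries (edgeR adjusted p = 0.798). RNA of all testis cells enters that count. Neither how exons were counted nor which exons were deleted is stated, so the value is no check of the labels. Of 17 Sertoli cell markers other than the members, 12 were lower and 5 were not called, and their summed level was 1423 to 1694 CPM in cKO and 2734 to 3191 CPM in WT. The lower ones were Sox8, Sox9, Dhh, Hsd17b3, Ptgds, Cst9, Defb19, Clu, Aard, Mro, Erbb4 and Gdnf, with log2 fold changes of -3.31 (Hsd17b3) to -0.86 (Clu, with Gata4 the most abundant of the list). Those not called were Wt1 (0.23 on the log2 scale), Gata4 (-0.48), Nr5a1 (0.05), Fgf9 (0.29) and Cldn11 (0.33), named after their values were seen. All of them but Gata4 had higher means in cKO. Pregranulosa markers, of cells that express Amhr2 and inhibin subunits in the later ovary, summed to 295 to 353 CPM in cKO and 110 to 132 CPM in WT, with Wnt4, Runx1 and Foxl2 higher among 8. Wnt4, with means of 238 CPM in cKO and 72.8 CPM in WT, made up most of these sums. Fst, Bmp2, Irx3, Rspo1 and Esr2 were not called (0.82, 0.60, 0.44, 0.05 and -0.20 on the log2 scale). Fetal Leydig cell markers, known beside Inhba, had 0 of 6 called and summed to 5005 to 6844 CPM in cKO and 3794 to 4497 CPM in WT. Markers of mesonephros and ducts, the mesenchyme of which expresses Amhr2, summed to 47.5 to 61.0 CPM in cKO and 30.6 to 35.1 CPM in WT, with Emx2 higher among 6. Emx2, with means of 29.2 CPM in cKO and 14.0 CPM in WT, made up a large part of these sums. Of the 6 genes 4 had a log2 fold change above 0. Interstitial progenitor markers had 0 of 8 called (12324 to 20523 CPM in cKO, 8438 to 13696 CPM in WT), and macrophage markers 0 of 7 (53.5 to 65.0 CPM in cKO, 49.1 to 67.8 CPM in WT). Called in the remaining lists were Mov10l1, lower, of 8 germ cell markers (summed 860.2 to 1452 CPM in cKO, 1326 to 1784 CPM in WT), Des, higher, of 5 myoid markers (558 to 635 CPM in cKO, 532 to 656 CPM in WT), Kdr, higher, of 5 endothelial markers (423 to 547 CPM in cKO, 407 to 492 CPM in WT), Hba-a1, higher, of 3 erythroid markers (98.8 to 269 CPM in cKO, 68.9 to 104 CPM in WT) and Pnmt, lower, of 3 adrenal markers (24.3 to 51.8 CPM in cKO, 34.9 to 50.9 CPM in WT). The most abundant markers that were not called were Cyp17a1 and Cyp11a1 of the Leydig cell list (0.25 and 0.59 on the log2 scale), Col1a1 and Col3a1 of the interstitial list (0.70 and 0.56), Piwil2 and Tdrd9 of the germ cell list (-0.38 and -0.39), Acta2 and Myh11 of the myoid list (-0.19 and 0.20) and Csf1r and Mrc1 of the macrophage list (0.37 and -0.25). Cdh5 (endothelial, -0.12), Alas2 (erythroid, 0.38), Pax8 (duct, 0.56), Cyp11b1 and Akr1b7 (adrenal, 0.40 and -0.18) were not called either. No tested marker list was at 0 in either group, and the part of each cell type in the members' values was not tested.

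Amh, the hormone gene, was 5.33-fold lower in cKO testes. It had 139, 280 and 85.6 CPM in cKO libraries 1, 2 and 3, against 653, 1131 and 908 CPM in WT libraries 1, 2 and 3. The groups lay far apart, and the highest cKO value, that of library 2, was below every WT value. The means were 168 ± 101 CPM in cKO and 897 ± 239 CPM in WT (SD, n = 3 each), a log2 fold change of -2.41 (SE 0.366, edgeR adjusted p = 0.00382, with a 95% confidence interval of -3.22 to -1.61). The counts behind these values were 1488 to 4215 in cKO libraries and 10489 to 16996 in WT libraries. The cKO libraries differed from each other by 3.28-fold between the highest and the lowest, against 1.73-fold among WT libraries. The Amh gene spans positions 84261893 to 84264284 of chromosome 10, plus strand (coordinates of the files, on C57BL/6NJ, as for the other members). No other annotated gene overlaps it. The nearest, the splicing factor gene Sf3a2, ends 323 bases upstream on the same strand and averaged 78.0 CPM in cKO testes and 97.5 CPM in WT testes, with a log2 fold change of -0.32 (edgeR adjusted p = 0.258).

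Inhbb, the βB subunit gene, was 2.69-fold lower. It had 86.6, 155 and 74.5 CPM in cKO libraries, against 240, 333 and 276 CPM in WT libraries. The groups did not overlap, and cKO library 2 again held the highest cKO value. Its log2 fold change came to -1.43 (SE 0.242, 95% confidence interval -1.96 to -0.90, edgeR adjusted p = 0.00775), with means of 105 ± 43.2 CPM in cKO and 283 ± 46.9 CPM in WT (SD, n = 3 each). Inhbb lies on chromosome 1 from 126840438 to 126848831, minus strand, with no overlapping gene.

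Inha, the α subunit that sets inhibins apart from activins, had lower values in cKO testes but was not called. It had 332, 238 and 296 CPM in cKO libraries, against 359, 497 and 427 CPM in WT libraries. The groups did not overlap, but cKO library 1 and WT library 1 lay close to each other. The log2 fold change of -0.57 was not called (SE 0.160, edgeR adjusted p = 0.0925, with -0.92 to -0.22 as the 95% confidence interval). Over 16 alternative fits its adjusted p ran from 0.00424 to 0.293, and 3 of them called it: DESeq2, the fit with almost no filter on low counts, and the fit without cKO library 1. The gene lies on chromosome 1 from 79040653 to 79043942, plus strand. A pseudogene annotated across it on the opposite strand had 0 counts in all libraries.

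Inhba, the βA subunit gene, had overlapping values in the groups. It had 78.9, 103 and 100.4 CPM in cKO libraries, against 67.8, 115 and 81.6 CPM in WT libraries. On the log2 scale cKO over WT was 0.10 with an SE of 0.186 and a 95% confidence interval of -0.31 to 0.51 (edgeR adjusted p = 0.853), so changes beyond 0.51 upwards or 0.31 downwards on the log2 scale lie outside the interval. Without WT library 1 the value was -0.058, the other direction. The gene lies on chromosome 13 from 13705946 to 13724162, plus strand.

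Amhr2, the receptor of anti-Müllerian hormone, had higher values in cKO testes but was not called. It had 110.1, 107.9 and 93.7 CPM in cKO libraries, against 80.3, 93.2 and 62.9 CPM in WT libraries. The lowest cKO value lay just above the highest WT value. On the log2 scale cKO over WT was 0.40 (SE 0.150, with a 95% confidence interval of 0.068 to 0.73), which missed the threshold (edgeR adjusted p = 0.217, and 0.0994 to 0.657 over the alternative fits). Amhr2 lies on chromosome 15 from 108523953 to 108533256, plus strand, with no overlapping gene.

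Fshr, the receptor of follicle-stimulating hormone and the least abundant member, was 8.72-fold lower. It had 2.83, 1.13 and 0.518 CPM in cKO libraries, against 14.6, 9.11 and 15.1 CPM in WT libraries. All cKO values lay below all WT values. The counts were 43, 17 and 9 in cKO libraries and 234, 137 and 252 in WT libraries, the lowest of the 6 members. Its log2 fold change came to -3.12 (SE 0.475, edgeR adjusted p = 0.00393, with -4.17 to -2.08 as the 95% confidence interval), the 17th most negative among all tested genes, where Amh held place 51. The size rested in part on cKO library 1, without which the value was -3.98 (edgeR adjusted p = 0.000213), and it was -2.09 on the log2(FPKM + 1) scale, which understates changes of low genes. Fshr spans positions 95730831 to 95957732 of chromosome 17, minus strand, and no annotated gene overlaps it.

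**Figure D1:**
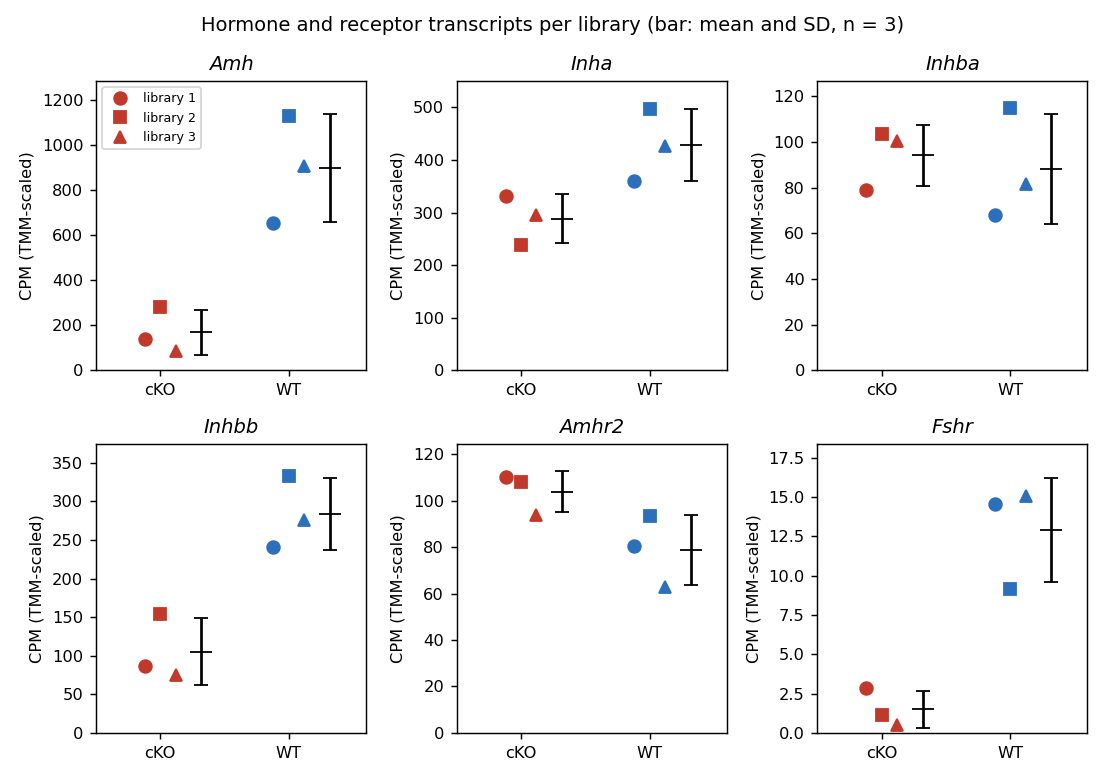
TMM-scaled CPM of the 6 genes in each library, with cKO left of WT, 1 symbol per library and the mean and SD of 3 libraries beside them. Amh, Inhbb and Fshr show a wide gap between the groups, Inha and Amhr2 a narrow one, and Inhba overlaps.

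**Figure D2:**
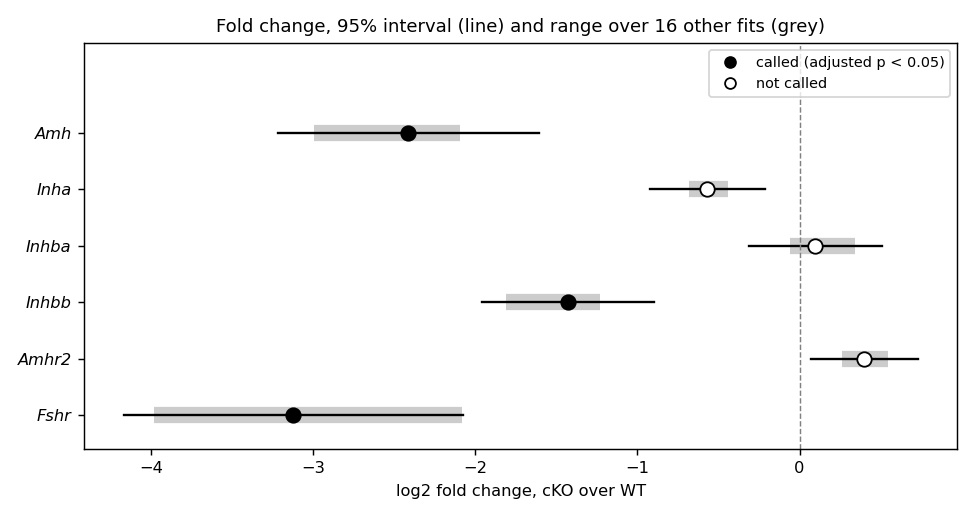
Log2 fold change of each gene, cKO over WT, with its 95% confidence interval (black line) and the range over 16 other fits (grey bar); filled points were called. The intervals of Amh, Inhbb, Fshr and Inha lie wholly below 0 and that of Amhr2 wholly above it, although Inha and Amhr2 were not called after adjustment over all genes. The interval and the grey bar of Inhba cross 0.

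Counting all fits, Amh, Inhbb and Fshr were called lower in 16 of 16 alternatives, with adjusted p up to 0.0226, 0.0466 and 0.0277. Of the 6 members 5 had groups that did not overlap, against 21.6% of all tested genes, and 4 of these were lower in cKO, against 10.9%. The order of libraries within a group also differed among members. In WT testes Amh, Inha, Inhbb and Inhba were each highest in library 2 and lowest in library 1. In cKO testes Amh and Inhbb were highest in library 2 and lowest in library 3, while Inha was lowest in library 2 and Fshr highest in library 1. The coefficient of variation among cKO libraries was 59.7% for Amh, 41.0% for Inhbb and 80.3% for Fshr, against 26.7%, 16.6% and 25.6% among WT libraries. It was 16.4% for Inha, 14.2% for Inhba and 8.59% for Amhr2 in cKO, against 16.03%, 27.4% and 19.3% in WT. These are values of 3 libraries each, and the difference in spread was not tested.

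Levels were compared between genes in the deposited FPKM, which divide by gene length. In cKO testes Inha ranked above Amh, followed by Amhr2, Inhba, Inhbb and Fshr, whereas in WT testes the order was Amh, Inha, Inhbb, Inhba, Amhr2 and Fshr. Amh had 83.0, 167 and 51.0 FPKM in cKO libraries, against 385, 674 and 540 FPKM in WT libraries. By mean FPKM it was the 351st most abundant of the tested genes in cKO and the 25th in WT. Inha had 223, 160 and 199 FPKM in cKO libraries, against 240, 334 and 287 FPKM in WT libraries, and held place 125 in cKO and place 62 in WT. In cKO the ranges of Inha and Amh overlapped, as did those of Amh and Amhr2 and those of Amhr2 and Inhba. In WT the ranges of Inhbb and Inhba overlapped, as did those of Inhba and Amhr2, and the other neighbours in the order were apart. Inhbb averaged 24.5 ± 10.1 FPKM in cKO and 65.8 ± 11.2 FPKM in WT. Inhba averaged 47.2 ± 6.75 FPKM in cKO and 44.0 ± 12.3 FPKM in WT. Amhr2 averaged 51.5 ± 4.41 FPKM in cKO and 38.9 ± 7.56 FPKM in WT. Fshr averaged 0.712 ± 0.571 FPKM in cKO and 6.14 ± 1.55 FPKM in WT (SD, n = 3 each throughout).

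**Figure D3:**
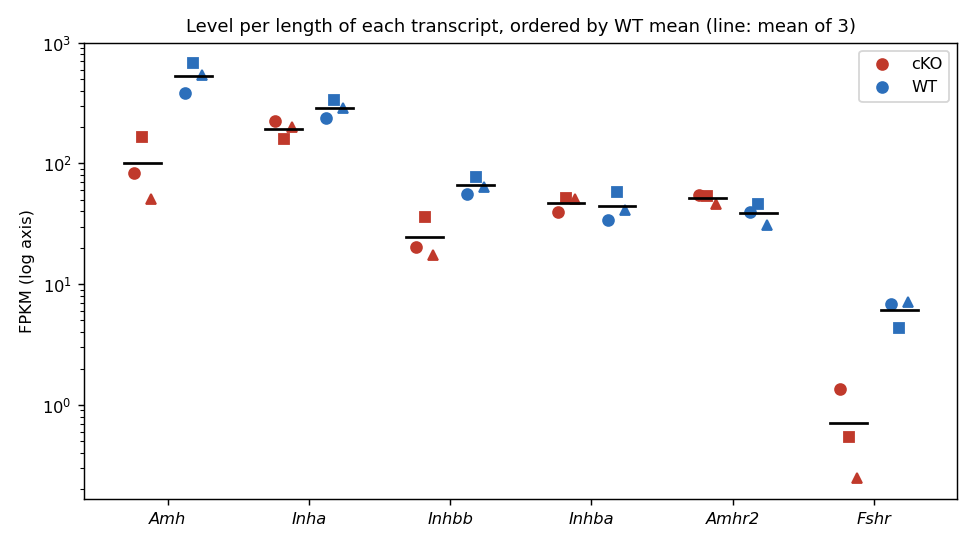
Deposited FPKM (log axis) of each gene in every library, cKO left of WT, genes ordered by their WT mean, with a line at the mean of 3 libraries. Inhbb averages 24.5 FPKM in cKO, below Inhba and Amhr2, and 65.8 FPKM in WT, above them.

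Because inhibins and activins are built from the same β subunits, ratios of FPKM between members were followed within each library. In whole testis such ratios join transcripts of different cells, Inhba being known mainly from Leydig cells. They are therefore no measure of the balance of subunits within a cell. For 6 pairs the mean log2 ratios of the groups were compared with an exact two-sided permutation test, which with 3 against 3 libraries cannot give a p below 0.1. The ratio of Inhba to Inhbb was 1.96, 1.44 and 2.90 in cKO libraries, against 0.606, 0.740 and 0.636 in WT libraries. The βA transcript was above βB in each cKO library and below it in each WT library, a difference of 1.61 in the log2 ratio (exact permutation p = 0.1, adjusted over 6 pairs 0.15). The ratio of Inha to Inhbb was 11.0, 4.44 and 11.4 in cKO libraries, against 4.31, 4.30 and 4.47 in WT libraries. WT libraries lay close together, and cKO library 2 fell among them while the other cKO libraries were higher (difference 0.92, exact permutation p = 0.2, adjusted 0.24). Inha to Inhba stood at 5.64, 3.09 and 3.95 in cKO libraries, against 7.11, 5.81 and 7.03 in WT libraries, all cKO values below all WT values (difference -0.69, exact permutation p = 0.1, adjusted 0.15).

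Hormone and receptor ratios were followed in the same way. The ratio of Amh to Amhr2 was 1.52, 3.12 and 1.10 in cKO libraries, against 9.78, 14.6 and 17.4 in WT libraries. Ligand and receptor transcripts were closer to each other in every cKO library than in any WT library (difference in log2 ratio -2.96, exact permutation p = 0.1, adjusted 0.15). The ratio of Amh to Inha was 0.372, 1.04 and 0.256 in cKO libraries, against 1.61, 2.02 and 1.88 in WT libraries (difference -1.98, exact permutation p = 0.1, adjusted 0.15). Amh to Fshr was 61.5, 310 and 206 in cKO libraries and 56.0, 155 and 75.2 in WT libraries, and the groups overlapped (difference 0.86, exact permutation p = 0.3, adjusted 0.3).

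**Figure D4:**
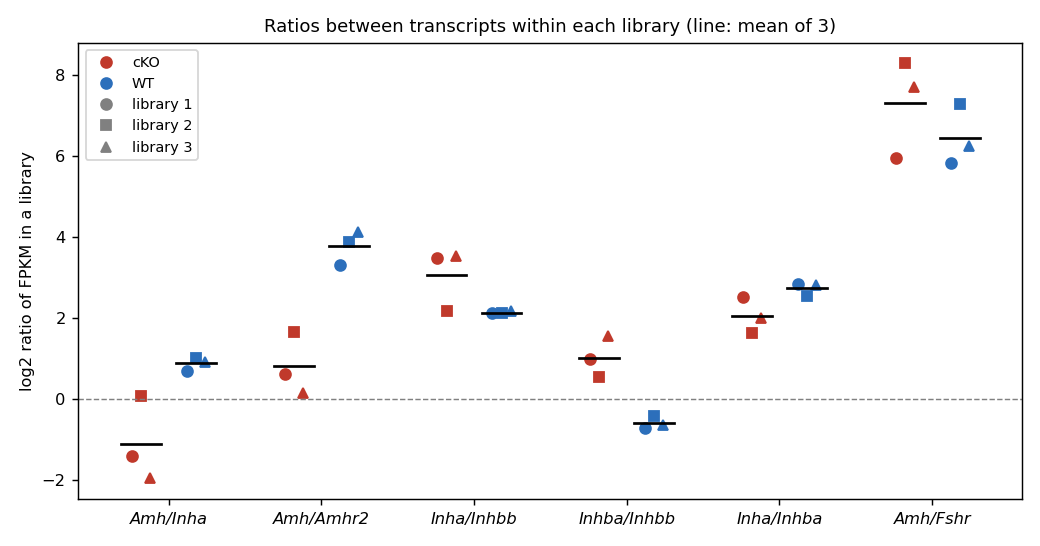
Log2 ratio of FPKM between members within each library, cKO left of WT, with a line at the mean of 3 libraries. Libraries of the same number were not treated as pairs. The groups are apart for Amh/Inha, Amh/Amhr2, Inhba/Inhbb and Inha/Inhba and overlap for Inha/Inhbb and Amh/Fshr.

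Other genes of these pathways were counted in 5 lists of 48 genes, beside a median log2 fold change of 0.0026 over all tested genes. Of 8 tested receptors and co-receptors for the TGF-β family ligands above, none was called by edgeR (list median -0.062). At an unadjusted p under 0.05 there were 3 of 8, where 15.8% of all tested genes passed that threshold. DESeq2 called 1 lower and limma-voom called 0. The gene with the smallest p was Acvr1b, the activin type I receptor ALK4, at 53.1 ± 6.73 CPM in cKO testes and 75.0 ± 1.597 CPM in WT testes (-0.50 on the log2 scale, edgeR adjusted p = 0.0644). In all, 4 of 16 alternative fits called it. Acvr1, a type I receptor that AMHR2 can pair with, stood at 0.33 (edgeR adjusted p = 0.255). Tgfbr3, betaglycan, which helps inhibins bind activin receptors, stood at 0.28 (edgeR adjusted p = 0.274). Bmpr1a, another type I receptor of the hormone, had 174 ± 19.6 CPM in cKO and 177 ± 4.30 CPM in WT.

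Among the binding proteins and proprotein convertases, which cut hormone precursors, none of 5 tested genes was called by edgeR or limma-voom (list median 0.027). At an unadjusted p under 0.05 there were 3 of 5, against 15.8% of all tested genes. DESeq2 called 1 lower. Pcsk5, a convertase able to cut the precursor of anti-Müllerian hormone, had 98.0 ± 7.28 CPM in cKO and 136 ± 17.6 CPM in WT (-0.48 on the log2 scale, edgeR adjusted p = 0.0793). Fst, follistatin, which binds activins and is also a marker of pregranulosa cells, had 5.40, 7.78 and 8.17 CPM in cKO libraries, against 2.36, 4.79 and 4.90 CPM in WT libraries (0.82, edgeR adjusted p = 0.243). Fstl3, a relative of follistatin, stood at -0.43 (edgeR adjusted p = 0.275). The subunit genes Inhbc and Inhbe were too rare to test, with 23 and 5 counts over all 6 libraries.

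Of 8 SMAD genes, 1 was lower, 7 were not called and the list median was 0.18, with 6 of 8 above 0. At an unadjusted p under 0.05 were Smad7, lower, and Smad1, Smad3 and Smad5, higher, where 15.8% of all tested genes passed. Smad7, an inhibitory SMAD that is itself induced by TGF-β family signals, had 75.3, 86.1 and 76.1 CPM in cKO libraries, against 110, 152 and 109 CPM in WT libraries. The groups did not overlap (log2 fold change -0.64, SE 0.147, edgeR adjusted p = 0.0391), but the call held in 9 of 16 alternative fits, and was lost on both FPKM scales and without any 1 library other than cKO library 2 (adjusted p up to 0.178). Smad1 and Smad5, which carry BMP and anti-Müllerian hormone signals, stood at 0.47 and 0.30 (edgeR adjusted p = 0.161 and 0.212).

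Of 8 transcription factors known to regulate Amh, 3 were lower, 1 was higher and 4 were not called (list median -0.22). Sox8, which acts with Sox9 on the Amh promoter, fell to 15.3, 15.5 and 9.20 CPM in cKO libraries, against 90.8, 90.6 and 92.3 CPM in WT libraries (log2 fold change -2.78, SE 0.190, edgeR adjusted p = 2.91e-05). Sox9 had 74.8, 62.5 and 42.3 CPM in cKO libraries, against 120, 112 and 133 CPM in WT libraries (-1.03, SE 0.184, edgeR adjusted p = 0.0106, and up to 0.0671 with WT library 1 or WT library 3 left out). For both, the lowest cKO value was that of library 3, which also held the lowest Amh, Inhbb and Fshr. That library also held the lowest cKO value of Dhh, Ptgds, Cst9, Clu, Aard, Hsd17b3, Mro, Erbb4 and Gdnf, but not of Defb19. Sox9 was highest in cKO library 1, whereas Amh and Inhbb were highest in cKO library 2. Dmrt1, a factor that maintains male sex in the gonad, had 27.7 ± 8.73 CPM in cKO and 49.3 ± 3.72 CPM in WT (-0.83, edgeR adjusted p = 0.0445), a call made in 9 of 16 alternative fits and lost on both FPKM scales and without any 1 library other than cKO library 2 (adjusted p up to 0.193). Nr0b1, which encodes DAX1, a repressor of NR5A1, rose to 30.2 ± 3.39 CPM in cKO libraries, against 13.5 ± 2.90 CPM in WT libraries (1.16, SE 0.188, edgeR adjusted p = 0.00592). The activators Nr5a1 (241 ± 15.7 CPM in cKO testes, against 233 ± 18.04 CPM in WT) and Wt1 (200.2 ± 15.98 CPM in cKO and 171 ± 6.78 CPM in WT) were not called. Gata4 had 314 ± 25.0 CPM in cKO testes, against 439 ± 25.5 CPM in WT testes (-0.48, edgeR adjusted p = 0.0579), and was called lower in 6 of 16 alternative fits. Without WT library 1 or WT library 3, Sox8 was the only factor of this list called lower.

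On the side of gonadotropin signalling, edgeR called none of 13 tested genes, nor did limma-voom or DESeq2 (list median 0.082). At an unadjusted p under 0.05 there were 2 of 13, a share near the 15.8% of all tested genes. Gnas, the stimulatory G protein that FSHR couples to, had 169 ± 34.0 CPM in cKO and 116 ± 31.1 CPM in WT (0.55, edgeR adjusted p = 0.198). The regulatory subunits of protein kinase A Prkar2b and Prkar1a stood at 0.27 and 0.29 (edgeR adjusted p = 0.307 and 0.377). Usf1, whose motif the Fshr window holds, had 72.9 ± 3.77 CPM in cKO and 71.3 ± 11.4 CPM in WT. Lhcgr, the receptor of luteinising hormone on Leydig cells, had 80.7 ± 25.7 CPM in cKO and 66.6 ± 9.06 CPM in WT. The hormone subunits made in the pituitary were near absent, with 0 counts of Fshb, where 3 counts in a library would be 0.1725 to 0.1996 CPM, and 3 counts of Cga over all libraries.

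**Figure D5:**
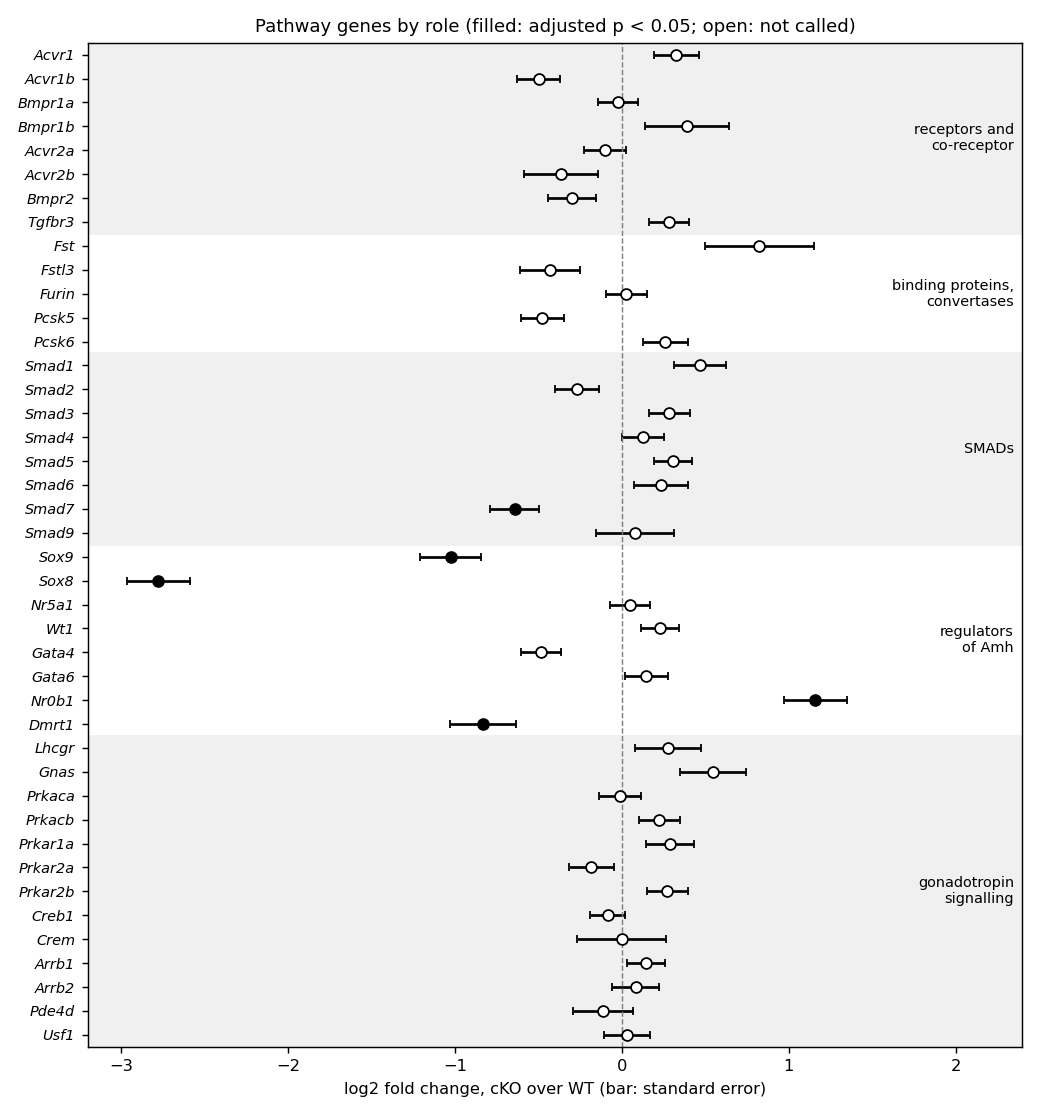
Log2 fold change, cKO over WT, with its standard error for the tested genes of the 5 pathway lists, grouped by role; filled points were called. Called genes are Smad7, Sox8, Sox9 and Dmrt1 to the left of 0 and Nr0b1 to the right.

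Each member was set beside the genes whose log2 CPM over the 6 libraries, centred on the gene's own mean, differed least from it (root mean square difference, over 13527 protein-coding genes with at least 2 CPM on average). This is a description of 6 libraries. Nearest to Amh were Chp2 (0.242), the metallothionein gene Mt3 (0.262) and the chemokine gene Ccl17 (0.296). Ccl17 had 2.63, 4.65 and 1.67 CPM in cKO libraries, against 7.90, 16.7 and 19.9 CPM in WT libraries. A likeness to Amh is how it was chosen and is no separate result. In WT its highest value was that of library 3, and that of Amh was in library 2. Nearest to Inhbb were Schip1 (0.152), Dhh (0.159), the Hedgehog ligand of Sertoli cells, and the cathepsin gene Ctsl (0.164). Dhh had 43.2, 62.0 and 34.8 CPM in cKO libraries, against 138, 150 and 124 CPM in WT libraries. Nearest to Fshr was Hsd17b3 (0.418), the last enzyme of testosterone synthesis, known from Sertoli cells in the fetal mouse testis, followed by Padi2 (0.462) and Shisa6 (0.466). Inha lay nearest to Wdr70, Sox6 and Plce1 (0.0884 to 0.0954), Inhba to Atp8b1, Spon1 and Obsl1 (0.0692 to 0.0795), and Amhr2 to B3gnt8, Pank1 and Nudt16 (0.0558 to 0.0691). Of these 9 genes Plce1 was called lower (-0.58, edgeR adjusted p = 0.0396) and the others were not called.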

How the data were processed

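Gene counts are those the authors deposited, whole numbers per gene and not normalised, with 1 column per library. Levels are the FPKM (fragments per length and library size) that the authors deposited, 1 column per library. The submitters' processing notes list HISAT2 2.0.5 and GRCm38. How reads were counted, and with which strand setting, is not stated there or in the labels. Gene identifiers of the files are those of C57BL/6NJ (41096 of 42747 rows), and 0 of 24685 symbols matched in RefSeq had their GRCm38 start, so file coordinates and GRCm38 sequences were kept apart.

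Counts of 18383 genes passing filterByExpr were fitted in R 4.3.3 with edgeR 4.0.16 (TMM, glmQLFit, glmQLFTest, no covariate; Benjamini-Hochberg, threshold 0.05). Standard errors are the fold change over the square root of F. CPM use the counts in tested genes. Libraries had medians of 282 to 329 counts per tested gene, and no pair of replicates was alike within sampling noise (chi-square over degrees of freedom 13.5 to 40.5). Ratios used FPKM and exact permutation tests. Alternatives were other scalings, DESeq2 1.42.0, limma 3.58.1 (voom, and trend on log2(FPKM + 0.1) and log2(FPKM + 1)), other low-count filters, the replicate number as a block and leaving out each library. Of the fits, only the main edgeR fit, DESeq2 and voom were run on simulated counts. The ratios, the FPKM fits and the fit with no filter were not. P-values measure the spread between these mice.

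Members, gene lists, motifs and tests were chosen with earlier results of these data known. Genes named are the members, Csnk1a1, called genes and the 3 with the smallest p of each pathway list, called genes and the 2 most abundant of each marker list, and the 3 nearest profiles of each member; any other gene named from them was picked with its value known.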

Additional observations from a re-analysis of the deposited data

How the results depend on the processing

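Amh, Inhbb and Fshr kept their direction and their call under all 16 alternative fits, and Amhr2 and Inhba stayed uncalled. Leaving out each library in turn gave a log2 fold change of -2.99 to -2.09 for Amh, -1.81 to -1.23 for Inhbb, -3.98 to -2.70 for Fshr, -0.68 to -0.44 for Inha, 0.26 to 0.55 for Amhr2 and -0.058 to 0.34 for Inhba, which turned to -0.058 without WT library 1 (adjusted p = 0.949). Inha was called by DESeq2 (-0.57, adjusted p = 0.0156) and with no filter beyond 1 count (-0.56, adjusted p = 0.00424). With no filter the SE was 0.144 for Inha, Inhba and Amhr2, 0.145 for Inhbb and 0.154 for Amh. In the main fit the SEs of these genes ran from 0.150 (Amhr2) to 0.366 (Amh). The SEs with no filter thus hardly followed the spread of each gene, which limits its adjusted p and its calls. The cause was not tested.

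All genes called numbered 276 higher and 339 lower by edgeR, 527 and 574 by DESeq2, 613 and 651 with no filter beyond 1 count, 149 and 223 on log2(FPKM + 0.1), 156 and 241 on log2(FPKM + 1), and 105 to 342 higher and 167 to 399 lower with 1 library left out. Dropping cKO library 3 gave 134 higher and 170 lower. Dropping WT library 1 gave 105 higher and 218 lower, WT library 2 gave 180 higher with 190 lower, and WT library 3 gave 105 higher with 167 lower; of the calls without WT library 1, 32.5% were higher, against 44.9% in all libraries. Receptors called lower were 0 by edgeR and 1 (Acvr1b) with upper-quartile factors, DESeq2 and no filter, and 0 to 1 with 1 library left out. Of the binding proteins and convertases 1 (Pcsk5) was called lower by DESeq2 and with no filter, and of the gonadotropin signalling genes 1 (Gnas) was called higher with no filter. SMAD genes called lower were 0 on both FPKM scales, and 0 to 1 lower and 0 to 1 higher with 1 library left out. Regulators of Amh called lower were 1 to 3 with 1 library left out.

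Every ratio kept its direction in its 8 alternatives. With 1 library left out the difference in the log2 ratio ran from -2.56 to -1.55 for Amh/Inha, -3.39 to -2.63 for Amh/Amhr2, 0.68 to 1.37 for Inha/Inhbb, 1.35 to 1.85 for Inhba/Inhbb, -0.92 to -0.49 for Inha/Inhba and 0.38 to 1.54 for Amh/Fshr.

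Whether same-numbered cKO and WT libraries belong together could not be settled from 3 libraries per group. Their deviations from the group means had correlations of 0.017, 0.184 and 0.032. Of the cKO libraries, library 1 correlated best with WT library 3 (0.157), and libraries 2 and 3 with their own number. The fit with the replicate number as a block gave -2.54 for Amh, -1.49 for Inhbb, -3.26 for Fshr, -0.57 for Inha, 0.12 for Inhba and 0.41 for Amhr2, with 324 genes called higher and 372 lower, and changed no call of a member. With the block the SE was 0.241 for Amh and 0.152 for Inhbb, against 0.366 and 0.242 without it. For Inha it was 0.166 against 0.160. Depth limits Fshr most, with 9 counts in cKO library 3.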
